A study of Mus musculus with 17 samples.

Results

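The mouse genes described here copy DNA and supply its building blocks: 43 genes that load and open the replicative helicase, synthesise and join new strands, coat single-stranded DNA, make deoxynucleotides, and provide histones behind the fork. They were chosen by symbol from a list of replication and nucleotide synthesis genes, and 43 of 43 were found among the 24594 genes of the count tables. Libraries made from total RNA of spleen CD8 T cells labelled CD8+Thy1.1+ were counted in 4 groups: Asxl1 KO (n = 4 libraries), Dnmt3a KO (n = 4), Tet2 KO (n = 4) and Rosa KO (n = 5), the last taken as the reference of the other 3. All groups share the tissue, cell type and CD8+Thy1.1+ label, and carry a knockout label of their own. Asxl1 encodes a chromatin regulator linked to polycomb complexes, Dnmt3a a DNA methyltransferase, and Tet2 an enzyme that oxidises methylated cytosine. The labels are at odds on what was sequenced, since they enter genomic DNA as the molecule while their protocol isolates RNA and uses an RNA kit, and the counts are read here as RNA. The labels give no age, treatment, time or way of making the knockouts, and nothing says that libraries of a group came from separate animals or cultures, so the p-values measure the spread between libraries, which may be technical.

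Before S phase, the origin recognition complex with Cdc6 and Cdt1 loads the Mcm2 to Mcm7 ring onto DNA. Cdc45 and the GINS proteins turn it into a working helicase, DNA polymerases copy the strands, and the Pcna ring keeps them on the template. A T cell that leaves the resting state raises the transcripts of these genes, many of them under E2F factors, as it prepares to divide, so they are widely read as a sign of cycling in T cell populations.

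The library numbers in the labels fall into 3 blocks, called run 1, run 2 and run 3 here, although the labels do not say what a block stands for. Run 1 held 1 Asxl1 KO, 2 Dnmt3a KO and 1 Rosa KO library, run 2 held 1 Asxl1 KO, 2 Dnmt3a KO and 2 Tet2 KO libraries, and run 3 held 2 Asxl1 KO, 2 Tet2 KO and 4 Rosa KO libraries. Run 2 thus had no Rosa KO library, run 3 no Dnmt3a KO library and run 1 no Tet2 KO library. Total counts ranged over 6625833 to 40701203 with a median of 21642477. T cell transcripts were present in every library: the summed CPM (counts scaled to library size with TMM factors) of 10 CD8 T cell markers lay between 4806 and 12530, with 641 to 1239.6 CPM of Cd8a and 399.9 to 1223.5 CPM of Cd8b1. Transcripts of other cells were also present, with summed B cell marker CPM of 151 to 3038 over 12 genes, and erythroid marker CPM of 2967 in Asxl1 KO 1 against 53 to 615 elsewhere. Asxl1, Dnmt3a and Tet2 did not pass the test in their own knockouts, with log2 fold changes of -0.13, -0.06 and -0.26, a measure that does not check the labels since a knocked-out gene can still be transcribed.

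All 43 members had counts in all 17 libraries, the lowest being 13 counts of Orc1 in Asxl1 KO 1, and all 43 passed the filter on low counts with 13881 genes tested. Together they took 0.193% to 0.389% of a library's counts. On a per-length scale (TPM, computed from the counts and exon lengths), Pcna had the highest median level over the libraries, 487 TPM, followed by Mcm6 with 208 TPM, Rpa2 with 176 TPM and Mcm4 with 166 TPM. The ranges of these neighbours overlapped, as Mcm6 reached 331 TPM and Rpa2 311 TPM. The lowest medians were 8.85 TPM for Cdc6, the loader of the helicase, and 5.47 TPM for Chaf1a, the large subunit of the chromatin assembly factor CAF-1. The highest library exceeded the lowest by 1.79-fold for Mcm4 and by 1.84-fold for Rpa1, the steadiest members, and by 27.95-fold for Orc1. That span rested on Asxl1 KO 1, with 0.80 CPM of Orc1, as the other libraries lay between 5.59 and 22.4 CPM.

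The summed CPM of the 43 members split the knockout groups by run. Tet2 KO libraries summed to 1976 and 2352 CPM in run 2 and 3985 and 3709.6 CPM in run 3. Dnmt3a KO libraries summed to 3433 and 3597 CPM in run 1 and 1788 and 2143 CPM in run 2. Asxl1 KO libraries 1 to 4 summed to 2834, 2389, 2767 and 2865 CPM, and Rosa KO libraries 1 to 5 to 2734, 2401, 2581, 2522 and 2349 CPM. The run 3 Tet2 KO pair and the run 1 Dnmt3a KO pair thus lay above every Rosa KO library. Asxl1 KO 1, 3 and 4 also did, by less. Of the 4 run 2 libraries of Tet2 KO and Dnmt3a KO, 3 lay under every Rosa KO library. The other, Tet2 KO 2, lay at the low end of the Rosa KO range. Of the 43 members, 16 had their highest CPM in the run 3 Tet2 KO pair and 11 in the run 1 Dnmt3a KO pair. The share of all tested genes with their highest CPM in these pairs was not computed, so these counts have no background beside them. In these bulk libraries, fewer cells expressing a gene and less RNA per cell cannot be told apart.

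**Figure D1:**
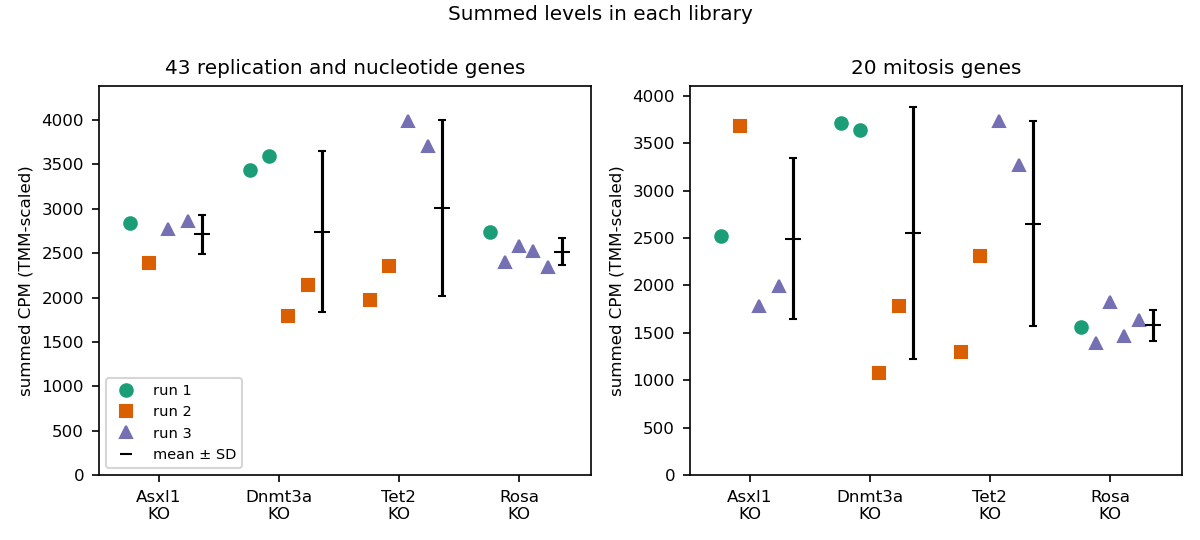
Summed CPM in each library for the 43 replication and nucleotide genes (left) and 20 mitosis genes (right), by group, with the run as colour and shape and bars for the mean and SD over a group's libraries. The Tet2 KO libraries at 3985 and 3709.6 CPM and the Dnmt3a KO libraries at 3433 and 3597 CPM stand above the Rosa KO libraries, which lie between 2349 and 2734 CPM. Asxl1 KO 1, 3 and 4 also lie above them, at 2834, 2767 and 2865 CPM.

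**Figure D2:**
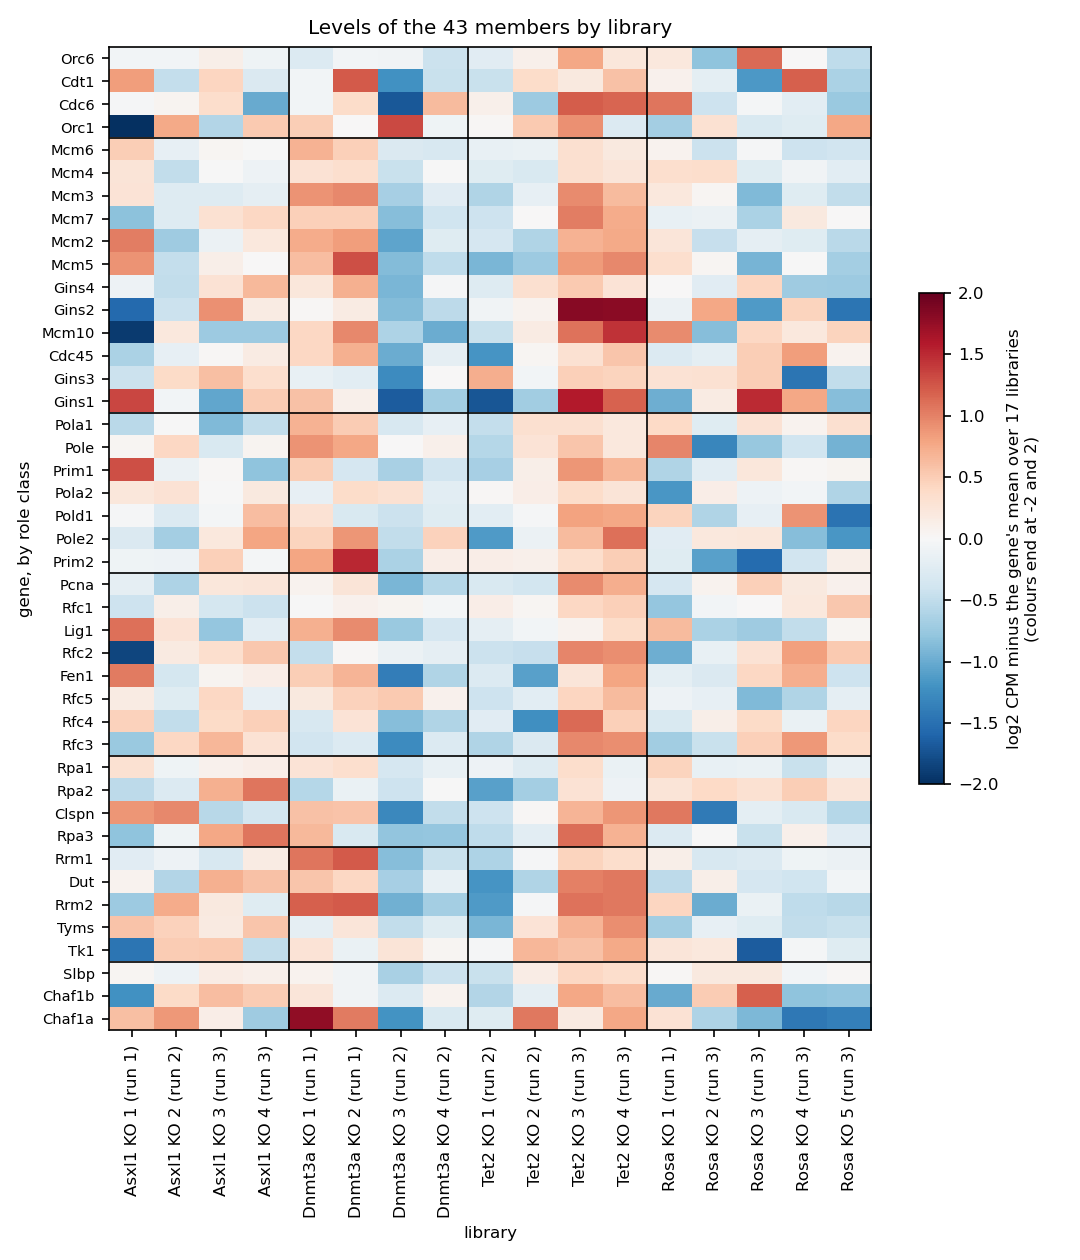
log2 CPM of each member minus its own mean over the 17 libraries, with genes in rows by role class, from licensing at the top to histone supply at the bottom, and libraries in columns by group. Red columns mark Tet2 KO 3 and 4 and Dnmt3a KO 1 and 2, which hold the highest value for 16 and 11 members as pairs. The same share over all tested genes was not computed.

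Tet2 KO was the knockout with the most members above Rosa KO. With group and run as terms (edgeR quasi-likelihood test, adjusted p over all genes under 0.05), 5 members rose and 0 fell, where 0.987% of all tested genes rose and 0.483% fell. They were Dut, Mcm2, Mcm3, Pcna and Mcm6. The median member log2 fold change was 0.60, against -0.02 for all tested genes, and 42 of 43 members were above 0. Without an adjustment, 22 of 43 had p under 0.05, against 12.2% of all genes. DESeq2 called 8 members as higher, where 1.62% of all genes rose, adding Chaf1a, Mcm5 and Tyms. Without the run term 0 of 43 were called in any knockout, where 0.0504% of all genes rose in Tet2 KO, 0.0504% in Asxl1 KO and 0.0216% in Dnmt3a KO.

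Dut, which removes dUTP so that uracil is not built into DNA (chr2:125247248-125259049, mm10), had 27.3 and 41.0 CPM in the run 2 Tet2 KO libraries and 124.9 and 128.6 CPM in the run 3 ones, against 43.2, 67.2, 49.4, 47.0 and 60.0 CPM in Rosa KO libraries 1 to 5. Its group means were 80.5 ± 53.8 CPM in Tet2 KO (SD, n = 4) and 53.4 ± 9.9 CPM in Rosa KO (SD, n = 5). The run 2 Tet2 KO pair lay under every Rosa KO library and the run 3 pair above every one. The log2 fold change of 0.98 ± 0.22 (SE, edgeR adjusted p = 0.022) came from the fit with the run term, and run 2 held no Rosa KO library to set beside its low Tet2 KO values. Within run 3 alone the log2 fold change of Dut was 1.18 (adjusted p = 0.0034, edgeR).

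Mcm2, a subunit of the helicase ring (chr6:88883474-88898780), had 46.3 and 38.5 CPM in run 2 and 94.4 and 99.4 CPM in run 3 of Tet2 KO, against 69.0, 42.5, 51.5, 49.7 and 40.2 CPM in Rosa KO libraries 1 to 5. The run 3 pair again lay above every Rosa KO library, and the run 2 pair within or under their range. It rose by a log2 fold change of 0.97 ± 0.22 (SE, edgeR adjusted p = 0.024). Mcm3, another subunit of the ring (chr1:20802966-20820312), had 75.5 and 102 CPM in run 2 and 219 and 177 CPM in run 3 of Tet2 KO, against 133, 117, 62.2, 96.6 and 81.4 CPM in Rosa KO. Only the run 3 Tet2 KO pair of Mcm3 was clear of the Rosa KO range, and its log2 fold change was 0.93 ± 0.22 (SE, edgeR adjusted p = 0.030). Mcm6, the member of the ring with the highest level (chr1:128331575-128359705), had 231 and 233 CPM in run 2 and 318 and 292 CPM in run 3 of Tet2 KO, against 268, 190.2, 252, 192 and 197 CPM in Rosa KO. Its run 2 Tet2 KO libraries lay inside the Rosa KO range and its run 3 pair above it, with a log2 fold change of 0.55 ± 0.14 (SE, edgeR adjusted p = 0.047). This call was kept in only 3 of 17 fits that each left out 1 library, with edgeR adjusted p-values of up to 0.40.

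Pcna, the sliding clamp (chr2:132249286-132253180), had 250.4 and 241 CPM in run 2 and 597 and 515 CPM in run 3 of Tet2 KO, against 246, 326, 431, 354 and 329 CPM in Rosa KO libraries 1 to 5. The run 2 pair lay at the low edge of the Rosa KO libraries and the run 3 pair above all of them, and the log2 fold change was 0.63 ± 0.15 (SE, edgeR adjusted p = 0.030). Counts of Pcna could be shared with its pseudogenes Pcna-ps1 and Pcna-ps2, depending on how the authors treated such reads.

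The promoters of 36 of the 43 members were found in a RefSeq table (GRCm38.p6) and searched over the 250 bases before the start site, on both strands, for 3 motifs. The E2F letters were TTCCCGC or one of the variants spelled TTCGCGC or else spelled TTGGCGC or else spelled TTGCCGC. The others were CCAAT and the CHR letters, spelled TTTGAA or else spelled TTCGAA. An E2F match was present in 15 of 36 member promoters (41.7%), against 13.8% of promoters of tested genes and 7.97% of all 27025. CCAAT was present in 23 of 36 (63.9%), against 36.9% of promoters of tested genes, and CHR letters in 6 of 36 (16.7%), against 13.2%. Those of the 4 helicase and clamp genes that rose in Tet2 KO are printed 5′ to 3′ on the gene's own strand, with E2F letters and CCAAT, on either strand, in capitals, to show how unlike they are in these letters. Mcm6 holds E2F letters at 2 places, each matched on both strands, and CCAAT at 2. Mcm2, Mcm3 and Pcna hold no E2F match in this window, and 1, 3 and 1 CCAAT.
Mcm2, chr6:88898781-88899030, minus strand: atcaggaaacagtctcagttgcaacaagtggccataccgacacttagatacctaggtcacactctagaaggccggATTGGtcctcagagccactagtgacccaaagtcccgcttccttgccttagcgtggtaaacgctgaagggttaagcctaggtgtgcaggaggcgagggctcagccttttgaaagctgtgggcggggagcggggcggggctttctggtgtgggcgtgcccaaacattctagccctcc
Mcm3, chr1:20820313-20820562, minus strand: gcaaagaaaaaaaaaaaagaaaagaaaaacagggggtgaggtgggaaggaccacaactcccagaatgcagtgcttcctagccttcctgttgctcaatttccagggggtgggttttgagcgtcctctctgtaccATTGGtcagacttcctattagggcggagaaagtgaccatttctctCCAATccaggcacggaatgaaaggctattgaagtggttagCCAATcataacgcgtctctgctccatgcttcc
Mcm6, chr1:128359706-128359955, minus strand: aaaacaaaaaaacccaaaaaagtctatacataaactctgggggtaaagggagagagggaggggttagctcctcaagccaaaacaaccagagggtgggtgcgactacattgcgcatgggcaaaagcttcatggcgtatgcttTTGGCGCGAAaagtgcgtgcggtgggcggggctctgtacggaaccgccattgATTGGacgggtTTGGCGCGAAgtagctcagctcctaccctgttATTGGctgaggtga
Pcna, chr2:132253181-132253430, minus strand: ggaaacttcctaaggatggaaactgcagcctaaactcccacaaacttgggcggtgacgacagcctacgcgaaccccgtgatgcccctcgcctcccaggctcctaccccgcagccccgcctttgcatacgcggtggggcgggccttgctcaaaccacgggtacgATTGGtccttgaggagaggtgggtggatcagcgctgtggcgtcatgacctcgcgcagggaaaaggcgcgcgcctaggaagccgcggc
A match describes the letters only, and its absence says nothing of the factor.

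**Figure D3:**
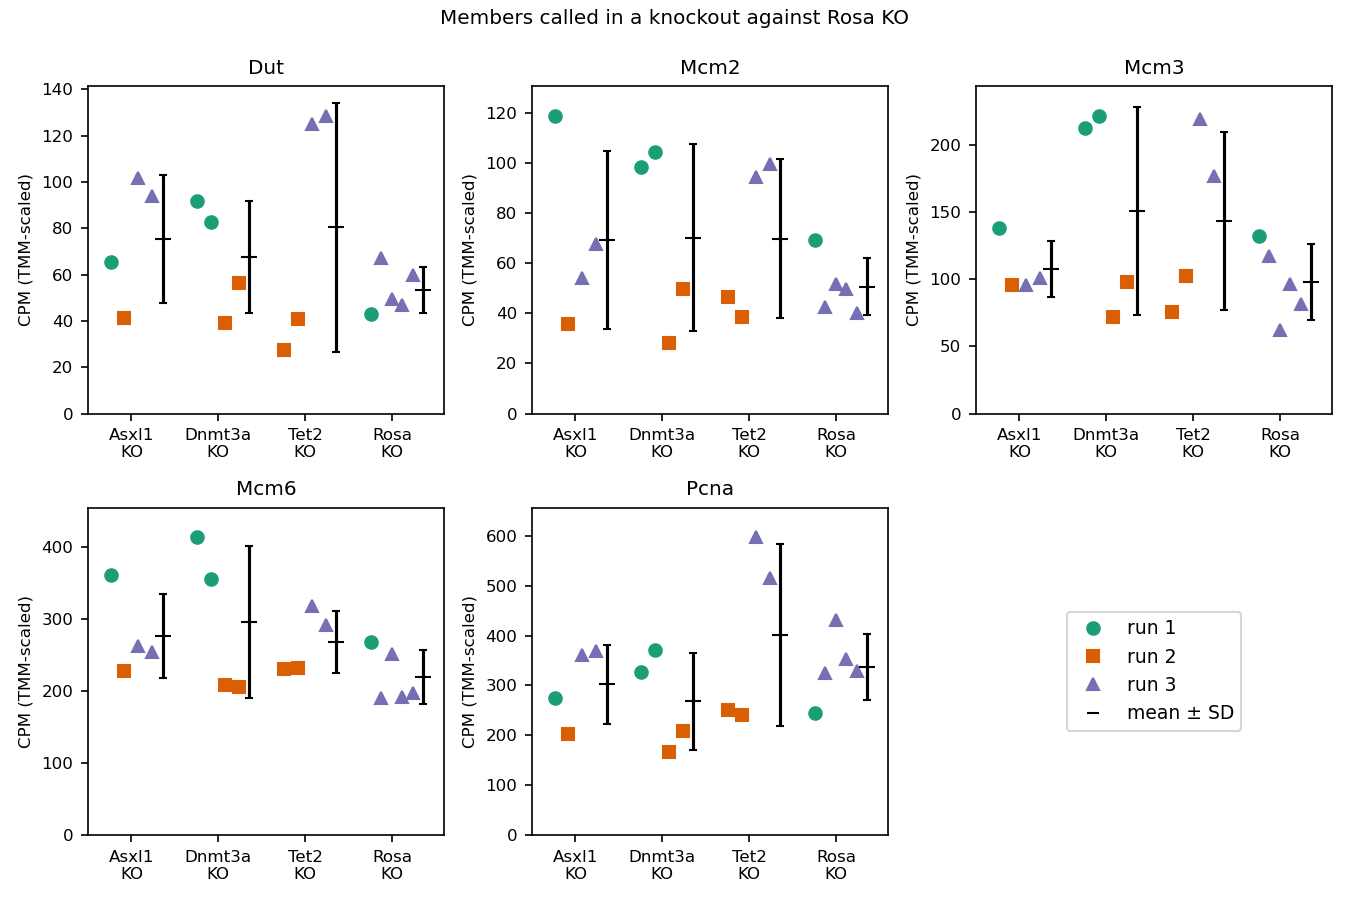
CPM in each library for Dut, Mcm2, Mcm3, Mcm6 and Pcna by group, with the run as colour and shape and bars for the mean and SD. In each panel the run 3 Tet2 KO libraries lie above all 5 Rosa KO libraries and above the run 2 Tet2 KO libraries, which for Dut lie at 27.3 and 41.0 CPM.

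Within run 3, where both groups were present, 28 of 43 members were higher in both Tet2 KO libraries than in all 4 Rosa KO libraries, against 13.5% of all tested genes. The test within run 3 called 11 members higher and 0 lower, where 1.80% of all genes rose: Clspn, Dut, Gins2, Mcm2, Mcm3, Mcm5, Mcm7, Pcna, Pole, Rrm2 and Tyms. Mcm6 had a log2 fold change of 0.55 there (adjusted p = 0.053, edgeR). With runs 1 and 3 together, 8 members passed as higher, where 0.753% of all genes did. Among these genes, Mcm7 overlaps Ap4m1, and Tyms has a pseudogene, Tyms-ps, that could share its reads. No member was higher in all 4 Tet2 KO libraries than in all 5 Rosa KO libraries, where 1.43% of all genes were, and Mcm4, Dut and Rpa2 were lower in both run 2 Tet2 KO libraries than in every Rosa KO library, where 6.48% of all genes were. Single libraries moved the calls, for all genes as well as for members. The calls of Dut and Mcm2 were each kept in 14 of 17 fits that left out 1 library. Those of Mcm3 were kept in 11, of Pcna in 9 and of Mcm6 in 3. Without Tet2 KO 3, 0 members were called and 0.0838% of all genes rose, with the members' median log2 fold change at 0.50. Without Tet2 KO 4, 0 members were called and 0.161% of all genes rose, with the median at 0.53, and without both of these libraries the median was 0.17. Without Rosa KO 5, Dut was the 1 member called, where 0.333% of all genes rose, and without Rosa KO 4 it was Mcm2, where 0.379% did. Without Asxl1 KO 1 or Asxl1 KO 2, which enter the same fit, 10 members rose, where 1.65% and 1.13% of all genes did.

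Other measures of the same libraries stood beside this difference, and their part in it was not tested. The summed CPM of 12 B cell markers was 2122 and 151 in run 2 and 2683 and 2612 in run 3 of Tet2 KO, against 528 in the run 1 and 2742 to 3038 in the run 3 Rosa KO libraries. None of the 12 was at 0 in any Tet2 KO library, and 0 of 12 passed the test between Tet2 KO and Rosa KO. Of the other marker lists, 1 of 10 myeloid genes fell, Itgam, an integrin subunit, with 123.7 to 179 CPM in Tet2 KO against 342 to 409 CPM in Rosa KO and a log2 fold change of -1.33 (edgeR adjusted p = 0.00041). Of 6 NK cell genes 1 fell, Klrb1c, the NK1.1 receptor, with 21.8 to 36.3 CPM in Tet2 KO against 108 in run 1 and 234 to 266 CPM in run 3 Rosa KO libraries and a log2 fold change of -2.38 (edgeR adjusted p = 0.0059). Of 10 CD8 T cell genes 1 rose, Cd3d, a subunit of the T cell receptor complex, by a log2 fold change of 0.68 (edgeR adjusted p = 0.041). For Itgam and Klrb1c the Tet2 KO and Rosa KO libraries did not overlap. The total counts of Tet2 KO 3 and 4 were 13890261 and 16389059, against 6625833 to 40701203 in the run 3 Rosa KO libraries.

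By role, the helicase genes had a median log2 fold change of 0.70 in Tet2 KO against Rosa KO, with 3 of 12 passing and 12 of 12 above 0. Gins2, a GINS subunit, had the highest fold change of the class, 1.48 ± 0.46 (SE, edgeR adjusted p = 0.13), with 14.7 and 16.2 CPM in run 2 and 54.4 and 54.2 CPM in run 3 of Tet2 KO, against 14.2, 26.5, 7.08, 21.0 and 5.59 CPM in Rosa KO. Its run 3 pair was above all Rosa KO libraries, the Rosa KO libraries themselves spread widely, and the gene overlaps Gse1. The 4 licensing genes had a median of 0.37, the 7 polymerase and primase genes 0.70, and the 8 clamp, clamp loader and maturation genes 0.46, with Pcna the 1 member of these 3 classes that passed.

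The 5 nucleotide supply genes had the highest class median in Tet2 KO, 0.97, with Dut the 1 that passed. Tyms, which makes the thymidine precursor dTMP, had 20.4 and 46.8 CPM in run 2 and 61.6 and 73.1 CPM in run 3 of Tet2 KO, against 23.8, 34.5, 32.5, 27.3 and 28.4 CPM in Rosa KO. Of its 4 Tet2 KO libraries 3 were above all Rosa KO libraries, and the log2 fold change of 0.97 ± 0.28 had an adjusted p of 0.0865 (SE, edgeR). Rrm1, the large subunit of ribonucleotide reductase, had 58.9 and 88.7 CPM in run 2 and 123 and 116 CPM in run 3 of Tet2 KO, against 98.6, 72.9, 75.2, 85.1 and 83.8 CPM in Rosa KO, with a log2 fold change of 0.60 ± 0.25 (SE, edgeR adjusted p = 0.29).

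Histone supply and strand binding showed members at both ends. Chaf1a had 11.5 and 28.3 CPM in run 2 and 15.4 and 23.3 CPM in run 3 of Tet2 KO, against 16.7, 8.86, 7.30, 5.07 and 5.29 CPM in Rosa KO, and the highest log2 fold change of all members in this comparison, 1.51 ± 0.45 (SE, edgeR adjusted p = 0.10). The groups overlapped only through the run 1 Rosa KO library, and the gene overlaps Ubxn6. Rpa2, a subunit of the single-strand binding protein RPA, had 61.1 and 80.6 CPM in run 2 and 158 and 121 CPM in run 3 of Tet2 KO, against 156, 171, 160.5, 182 and 154 CPM in Rosa KO. It was the 1 member under 0, at -0.48 ± 0.22 (SE, edgeR adjusted p = 0.36), and only Tet2 KO 3 reached the Rosa KO range. Slbp, which binds the stem-loop of histone mRNAs, had 95.6 and 144 CPM in run 2 and 173 and 165 CPM in run 3 of Tet2 KO, against 133, 149, 149, 124.5 and 132.3 CPM in Rosa KO, at a log2 fold change of 0.27 ± 0.17 (SE, edgeR adjusted p = 0.59). Rpa1, the large RPA subunit, which overlaps Smyd4, had 124.7 and 113 CPM in run 2 and 170.5 and 122 CPM in run 3 of Tet2 KO, against 182, 121, 123, 98.9 and 121 CPM in Rosa KO, so that all 4 lay inside the Rosa KO range. Orc6, the best detected licensing gene, had 25.0 and 31.3 CPM in run 2 and 49.99 and 34.0 CPM in run 3 of Tet2 KO, against 33.8, 16.7, 64.1, 29.2 and 20.5 CPM in Rosa KO, again inside the range. Pola1, the catalytic subunit of polymerase alpha, was next to Rpa2 at the low end with a log2 fold change of 0.044, and had 61.3 and 107 CPM in run 2 and 107 and 98.8 CPM in run 3 of Tet2 KO, against 112, 72.4, 105, 89.2 and 106 CPM in Rosa KO.

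Members at the ends of the other comparisons lay mostly higher in the run 3 than in the run 2 Tet2 KO libraries. Pole2 had 9.51 and 19.2 CPM in run 2 and 32.4 and 44.8 CPM in run 3 of Tet2 KO, against 17.8, 24.2, 24.5, 11.5 and 9.37 CPM in Rosa KO. Mcm10, which helps to start the helicase, had 11.1 and 16.9 CPM in run 2 and 32.2 and 41.1 CPM in run 3 of Tet2 KO, against 29.0, 8.38, 20.2, 17.5 and 20.5 CPM in Rosa KO. For both genes the run 3 pair was above all Rosa KO libraries. Clspn had 30.1 and 40.8 CPM in run 2 and 64.5 and 74.0 CPM in run 3 of Tet2 KO, against 83.9, 15.1, 35.1, 32.7 and 27.2 CPM in Rosa KO. Gins3 had 17.5 and 10.2 CPM in run 2 and 14.7 and 14.4 CPM in run 3 of Tet2 KO, against 12.9, 13.1, 14.9, 3.87 and 7.55 CPM in Rosa KO. None of these 4 passed the test over all libraries.

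**Figure D4:**
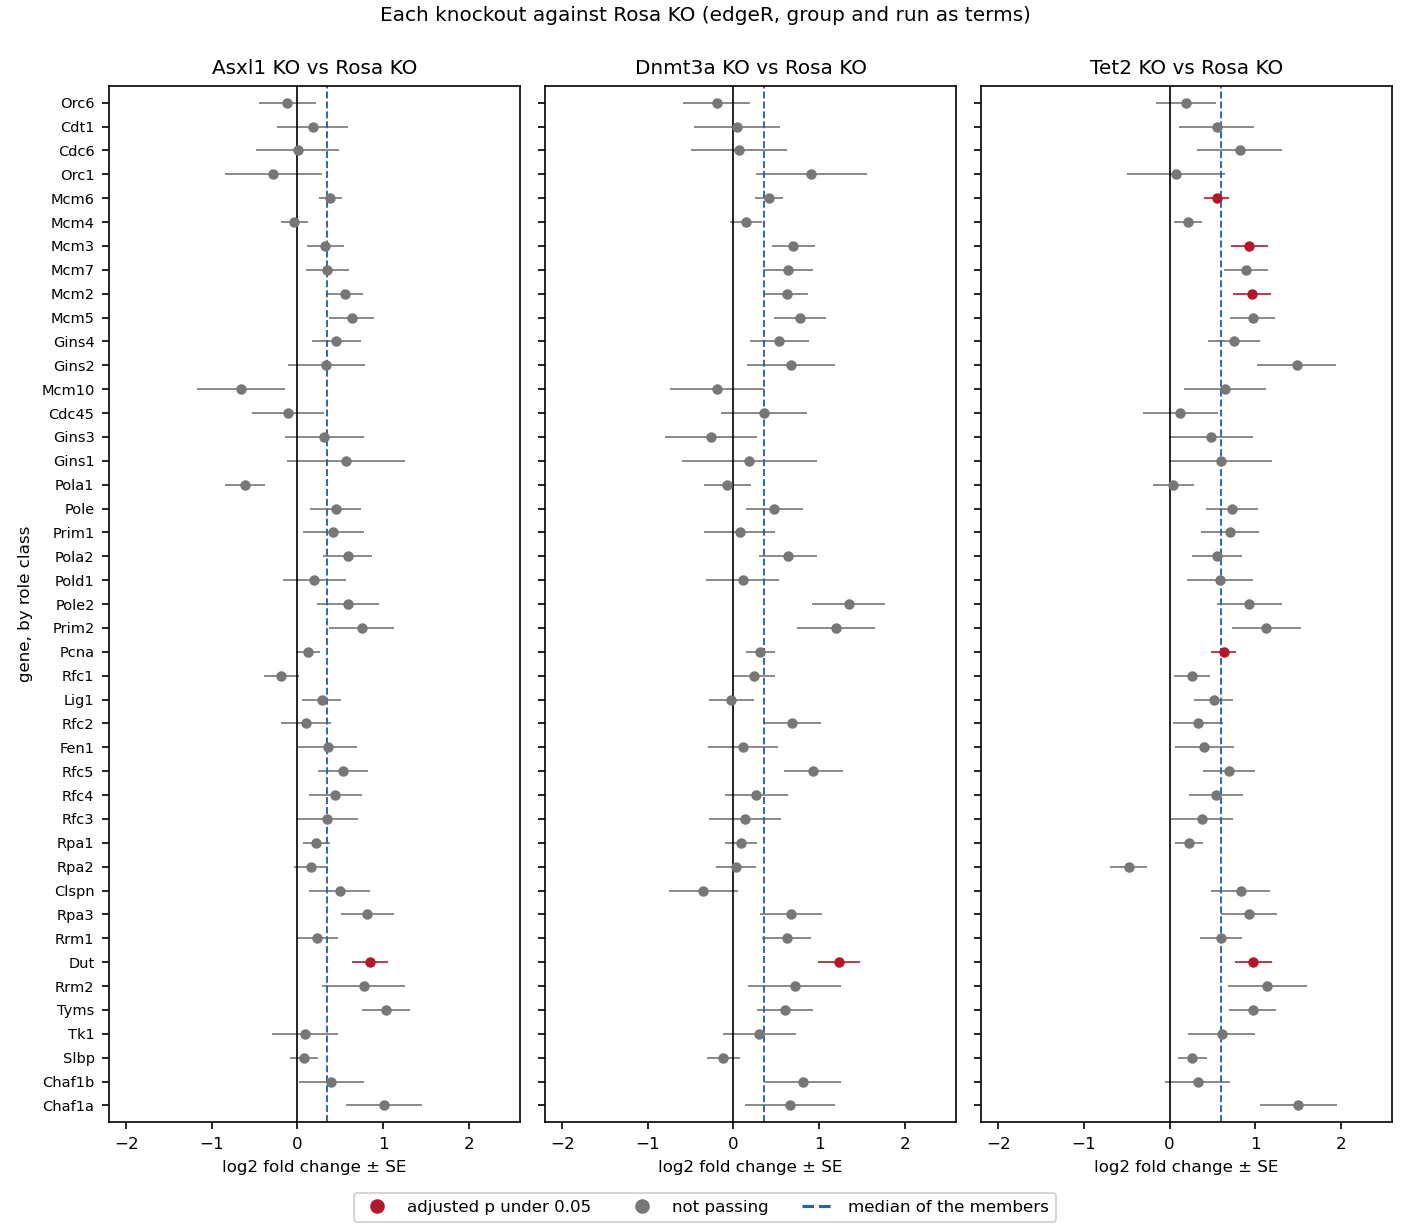
log2 fold change with its SE for each member in Asxl1 KO, Dnmt3a KO and Tet2 KO against Rosa KO, by role class, with members past an adjusted p of 0.05 in red and the median of the members dashed. Dut is red in all 3 panels, and Mcm2, Mcm3, Mcm6 and Pcna in the Tet2 KO panel, where the median is 0.60.

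In Asxl1 KO, 1 member rose and 0 fell against Rosa KO, where 0.814% of all genes rose and 0.821% fell. The median member log2 fold change was 0.35, against 0.00 for all genes, with 36 of 43 above 0. Without Asxl1 KO 2, the 1 Asxl1 KO library of run 2, the median was 0.16 with 32 of 43 above 0, and without the run term it was 0.14. Without an adjustment, 8 of 43 had p under 0.05, against 15.7% of all genes. DESeq2 called Dut and Tyms as higher, where 2.27% of all genes rose. The 3 knockout comparisons share the Rosa KO libraries, so their values are not independent of each other.

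The member that rose in Asxl1 KO was Dut, with 65.3, 41.3, 102 and 93.8 CPM in Asxl1 KO libraries 1 to 4, against 43.2, 67.2, 49.4, 47.0 and 60.0 CPM in Rosa KO libraries 1 to 5. Both run 3 Asxl1 KO libraries lay above all Rosa KO libraries and the run 2 library lay under all of them. The log2 fold change was 0.85 ± 0.21 (SE, edgeR adjusted p = 0.039), and within run 3 it was 0.81 (adjusted p = 0.032). Tyms had 57.3, 53.2, 43.7 and 56.5 CPM in Asxl1 KO, above all 5 Rosa KO libraries, which reached 34.5 CPM, and a log2 fold change of 1.03 ± 0.28 (SE, edgeR adjusted p = 0.056).

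At the other end in Asxl1 KO stood Pola1, with 58.7, 84.9, 46.1 and 61.0 CPM in Asxl1 KO, against 112, 72.4, 105, 89.2 and 106 CPM in Rosa KO. The groups overlapped only through Asxl1 KO 2 and Rosa KO 2, and the log2 fold change was -0.61 ± 0.24 (SE, edgeR adjusted p = 0.19). In runs 1 and 3 alone Pola1 passed the test as lower, where 1.39% of all genes did. Mcm10 had 4.01, 17.5, 9.17 and 9.16 CPM in Asxl1 KO, against 29.0, 8.38, 20.2, 17.5 and 20.5 CPM in Rosa KO, with a log2 fold change of -0.66 ± 0.51 (SE, edgeR adjusted p = 0.59). Chaf1a had 20.5, 24.8, 14.95 and 8.34 CPM in Asxl1 KO, overlapping the Rosa KO range of 5.07 to 16.7 CPM, with a log2 fold change of 1.01 ± 0.44 (SE, edgeR adjusted p = 0.26).

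Apart from Dut, the genes that rose in Tet2 KO did not pass in Asxl1 KO. Mcm2 had 119, 35.9, 54.1 and 67.7 CPM in Asxl1 KO libraries 1 to 4, against 40.2 to 69.0 CPM in Rosa KO. Mcm3 had 139, 96.0, 95.7 and 101 CPM in Asxl1 KO, against 62.2 to 133 CPM in Rosa KO. Mcm6 had 361, 228, 263 and 254 CPM in Asxl1 KO, against 190.2 to 268 CPM in Rosa KO. For these 3 genes Asxl1 KO 1 was the 1 library above the Rosa KO range. Pcna had 276, 202, 362 and 368 CPM in Asxl1 KO, against 246 to 431 CPM in Rosa KO, with Asxl1 KO 2 the 1 library outside that range.

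Among the best detected members of other classes, Rrm1 had 77.9, 84.8, 72.7 and 101 CPM in Asxl1 KO, against 72.9 to 98.6 CPM in Rosa KO. Orc6 had 28.1, 27.9, 31.5 and 27.3 CPM in Asxl1 KO, against 16.7 to 64.1 CPM in Rosa KO. The groups overlapped for both genes. Rpa1 had 166, 127.04, 142 and 148 CPM in Asxl1 KO, against 98.9 to 182 CPM in Rosa KO. Slbp had 133.5, 121, 143 and 139 CPM in Asxl1 KO, against 124.5 to 149 CPM in Rosa KO. Log2 fold changes of these 4 genes lay between -0.12 and 0.23.

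The other genes at the ends of a comparison varied more among the Asxl1 KO libraries. Rpa2 had 90.01, 107, 213 and 272 CPM in Asxl1 KO, the first pair under and the run 3 pair above the Rosa KO range of 154 to 182 CPM. Pole2, the second subunit of polymerase epsilon, had 17.03, 13.0, 24.2 and 35.9 CPM in Asxl1 KO, against 9.37 to 24.5 CPM in Rosa KO. Clspn, which carries the checkpoint signal at stalled forks, had 74.5, 78.6, 27.3 and 31.3 CPM in Asxl1 KO, against 15.1 to 83.9 CPM in Rosa KO. None of these 3 passed the test. Gins2 had 5.24, 11.5, 29.0 and 17.3 CPM in Asxl1 KO, against 5.59 to 26.5 CPM in Rosa KO, and Gins3, another GINS subunit, had 7.83, 13.9, 16.0 and 13.4 CPM in Asxl1 KO, against 3.87 to 14.9 CPM in Rosa KO.

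Within run 3, 10 of 43 members were higher in both Asxl1 KO libraries than in all 4 Rosa KO libraries, where 14.0% of all genes were, and 2 of 43, Pola1 and Rfc1, were lower in both, where 12% of all genes were. Dut and Rpa3, the small RPA subunit, passed as higher in that run, where 1.77% of all genes rose. In run 1, which held 1 Asxl1 KO and 1 Rosa KO library, the median member log2 fold change was -0.087. The Asxl1 KO library there was the one with the high erythroid marker sum. A test within run 1 takes its spread from the Dnmt3a KO pair alone, so 0 members passing as higher there, where 2.64% of all genes rose, says nothing of the spread in Asxl1 KO or Rosa KO. The call for Dut was lost when Asxl1 KO 2, 3 or 4, Tet2 KO 3 or 4, or Rosa KO 3, 4 or 5 was left out, with adjusted p-values of up to 0.13. The summed B cell marker CPM was 658 and 630 in the run 3 Asxl1 KO libraries, against 2742 to 3038 in the run 3 Rosa KO libraries, with 12 of 12 B cell genes under a log2 fold change of 0 and 0 of 12 passing. Of 10 CD8 T cell markers, 10 were above 0 and 4 rose: Cd3g, Cd3d, Cd2 and Zap70. Itgam fell by 1.32 and Klrb1c by 2.62 on the log2 scale, and Eomes, a transcription factor of NK and CD8 T cells, rose by a log2 fold change of 1.15. The part of this shift in the member values was not tested.

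In Dnmt3a KO, 1 member rose and 0 fell against Rosa KO, where 0.036% of all genes rose and 0.18% fell. The median member log2 fold change was 0.36, against -0.003 for all genes, and 36 of 43 members were above 0. Without the run term the median was 0.070, with 24 of 43 above 0. Without an adjustment, 10 of 43 had p under 0.05, against 8.03% of all genes. DESeq2 called Dut alone, where 0.411% of all genes rose. Dut was again the member that rose, with 91.6 and 82.9 CPM in run 1 and 39.2 and 56.3 CPM in run 2 of Dnmt3a KO, against 43.2, 67.2, 49.4, 47.0 and 60.0 CPM in Rosa KO. The run 1 pair lay above every Rosa KO library and the run 2 pair under or within their range. The log2 fold change was 1.23 ± 0.25 (SE, edgeR adjusted p = 0.026).

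Run 1 was the 1 run with both Dnmt3a KO and Rosa KO libraries. There, 28 of 43 members were higher in both Dnmt3a KO libraries than in Rosa KO 1, where 33.0% of all genes were, and the median member log2 fold change was 0.52. The log2 fold change of Dut there was 1.02. The test within run 1 had 1 Rosa KO library and 1 residual degree of freedom, that of the Dnmt3a KO pair, and 0 members passed, where 0.197% of all genes rose. The call for Dut was lost in 9 of 17 fits that left out 1 library, among them each run 1 Dnmt3a KO library and Rosa KO 1, with adjusted p-values of up to 0.11.

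Pole2 had the highest log2 fold change in Dnmt3a KO, 1.34 ± 0.43 (SE, edgeR adjusted p = 0.31). It had 28.5, 38.5, 14.8 and 28.8 CPM in Dnmt3a KO, against 17.8, 24.2, 24.5, 11.5 and 9.37 CPM in Rosa KO, with 3 of 4 Dnmt3a KO libraries above all Rosa KO libraries, and the gene overlaps Klhdc1. Clspn had the lowest log2 fold change, -0.35 ± 0.40 (SE, edgeR adjusted p = 0.89), with 60.4, 59.7, 16.4 and 28.8 CPM in Dnmt3a KO, against 83.9, 15.1, 35.1, 32.7 and 27.2 CPM in Rosa KO. Gins3 followed at -0.26 ± 0.54 (SE, edgeR adjusted p = 0.95), with 9.54, 9.18, 4.44 and 10.6 CPM in Dnmt3a KO, against 12.9, 13.1, 14.9, 3.87 and 7.55 CPM in Rosa KO. Both genes overlapped fully between the groups. Rrm1 was at 189.9 and 211 CPM in the run 1 Dnmt3a KO libraries and 50.4 and 66.7 CPM in the run 2 ones, with the Rosa KO libraries at 72.9 to 98.6 CPM in between.

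The same split by run ran through the genes that rose in Tet2 KO. Mcm2 had 98.3 and 104 CPM in run 1 and 28.2 and 49.5 CPM in run 2 of Dnmt3a KO, against 40.2 to 69.0 CPM in Rosa KO. Mcm3 had 213 and 222 CPM in run 1 and 71.8 and 97.7 CPM in run 2 of Dnmt3a KO, against 62.2 to 133 CPM in Rosa KO. Mcm6 had 414 and 355 CPM in run 1 and 209 and 206 CPM in run 2 of Dnmt3a KO, against 190.2 to 268 CPM in Rosa KO. For these 3 genes the run 1 pair lay above every Rosa KO library. Pcna had 327 and 372 CPM in run 1 and 166 and 209 CPM in run 2 of Dnmt3a KO, against 246 to 431 CPM in Rosa KO, so its run 1 pair lay inside the Rosa KO range and its run 2 pair under it.

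Other members followed the run to different degrees. Pola1 had 137 and 121 CPM in run 1 and 67.98 and 76.4 CPM in run 2 of Dnmt3a KO, against 72.4 to 112 CPM in Rosa KO. Slbp had 137 and 124.1 CPM in run 1 and 82.5 and 96.6 CPM in run 2 of Dnmt3a KO, against 124.5 to 149 CPM in Rosa KO. Rpa1 had 163 and 170.3 CPM in run 1 and 106 and 121 CPM in run 2 of Dnmt3a KO, inside the Rosa KO range of 98.9 to 182 CPM. Orc6 and Rpa2 did not split this way. Orc6 had 24.0 and 28.1 CPM in run 1 and 27.6 and 21.7 CPM in run 2 of Dnmt3a KO, against 16.7 to 64.1 CPM in Rosa KO. Rpa2 had 87.7 and 118 CPM in run 1 and 97.7 and 129 CPM in run 2 of Dnmt3a KO, under every Rosa KO library, which reached down to 154 CPM.

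Among genes with fewer counts, Tyms had 34.0 and 45.5 CPM in run 1 and 27.6 and 32.7 CPM in run 2 of Dnmt3a KO, against 23.8 to 34.5 CPM in Rosa KO. Chaf1a had 46.4 and 27.9 CPM in run 1 and 5.95 and 11.0 CPM in run 2 of Dnmt3a KO, against 5.07 to 16.7 CPM in Rosa KO. Both run 1 Chaf1a values lay above all Rosa KO libraries. Mcm10 had 20.1 and 29.4 CPM in run 1 and 9.86 and 7.64 CPM in run 2 of Dnmt3a KO, against 8.38 to 29.0 CPM in Rosa KO, and Gins2 had 15.7 and 17.3 CPM in run 1 and 8.52 and 10.7 CPM in run 2 of Dnmt3a KO, against 5.59 to 26.5 CPM in Rosa KO.

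Some markers of other cells were also high in the run 1 Dnmt3a KO pair, and their part in its member values was not tested. Mpo, a granule enzyme of neutrophil precursors, had 71.6 and 80.2 CPM in that pair and at most 12.6 CPM in any other library. Elane, the elastase of the same granules, had 5.06 and 7.09 CPM there, against at most 0.97 CPM elsewhere. The summed CPM of 8 neutrophil markers was 344 and 297 in run 1 and 25.4 and 60.5 in run 2 of Dnmt3a KO, against 75.1 to 195 in Rosa KO. It was 271 in Asxl1 KO 1 and 232 in Tet2 KO 3. For markers of this list other than Mpo and Elane, the pair did not stand above all other libraries. S100a8 had 71.0 and 71.4 CPM in the pair, against 80.4 CPM in Asxl1 KO 1 and 81.5 CPM in Tet2 KO 3. Ltf had 5.59 and 5.10 CPM there, against 16.0 CPM in Rosa KO 1. The summed CPM of 8 erythroid markers was 530.3 and 615 in run 1 and 57.2 and 93.0 in run 2 of Dnmt3a KO, against 571 in the run 1 and 100.01 to 144 in the run 3 Rosa KO libraries. It was 2967 in Asxl1 KO 1, so this sum was high in every run 1 library and did not set the pair apart. Car2 and Klf1 of this list did. Car2 had 70.7 and 50.4 CPM in the pair, against at most 27.8 CPM elsewhere. Klf1 had 3.16 and 3.59 CPM there, against at most 1.04 CPM elsewhere. The other erythroid markers did not set the pair apart, Hba-a1 and Hbb-bt being highest in Asxl1 KO 1. Of each of the neutrophil and erythroid lists 0 of 8 passed the test against Rosa KO. Rgs13, a germinal centre B cell marker, had 21.9 and 27.8 CPM in the pair, against at most 12.1 CPM elsewhere. The other germinal centre B cell markers did not set the pair apart. Itgam fell by 1.36 and Klrb1c by 3.65 on the log2 scale, and of the 10 CD8 T cell and 12 B cell markers 0 passed. Cd4 had 72.2, 99.5, 54.2 and 52.8 CPM in Dnmt3a KO libraries 1 to 4, against at most 28.1 CPM in any other library. The other CD4 T cell markers looked at, Zbtb7b, Foxp3 and Cd40lg, did not set Dnmt3a KO apart.

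Between the knockouts, 0 of 43 members passed the edgeR test in each of the 3 comparisons, and DESeq2 also called 0 in each. Genes called in either direction by edgeR made up 0.353% of all genes between Asxl1 KO and Dnmt3a KO, 0.562% between Asxl1 KO and Tet2 KO, and 0.0937% between Dnmt3a KO and Tet2 KO, and by DESeq2 1.58%, 1.28% and 0.526%. Without an adjustment, 2, 8 and 4 members had p under 0.05, against 11.0%, 7.21% and 5.6% of all genes. The median member log2 fold changes were -0.065, -0.30 and -0.25 in the same order. In Asxl1 KO against Tet2 KO, the smallest p belonged to Pcna, at a log2 fold change of -0.51 (adjusted p = 0.19). In run 3, 32 of 43 members were higher in both Tet2 KO libraries than in both Asxl1 KO libraries, where 22.3% of all genes were, whereas in run 2 the 1 Asxl1 KO library was above both Tet2 KO libraries for 17 of 43, where 31.5% were. Within run 1, 4 members, Mcm10, Pola1, Rrm1 and Rrm2, passed as lower in Asxl1 KO than in Dnmt3a KO, where 4.08% of all genes did; that run held 1 Asxl1 KO library, the one with the high erythroid marker sum, and the spread came from the Dnmt3a KO pair, so these calls describe that library and not the spread in Asxl1 KO.

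More members passed the test for run than for any knockout. The F test of the run terms called 20 of 43 members, against 23.6% of all tested genes, and of those 20 the lowest mean was in run 2 for 15, while the highest was in run 1 for 12 and in run 3 for 8. The median member log2 fold change was -0.69 for run 2 against run 1, where that of all genes was 0.01, and 0.59 for run 3 against run 2, where it was 0.02. For run 3 against run 1 it was 0.01, where that of all genes was 0.06. Dut had means of 70.7 CPM in run 1, 41.0 CPM in run 2 and 84.1 CPM in run 3, and Pcna of 305, 214 and 410 CPM. Lig1, the ligase that seals Okazaki fragments, followed another course, with 151 CPM in run 1, 74.2 CPM in run 2 and 70.6 CPM in run 3. Run 2 lacks Rosa KO, run 1 Tet2 KO and run 3 Dnmt3a KO, so run and group are only partly separate.

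In a wider list of 63 other replication and nucleotide genes, 1 rose and 0 fell in Asxl1 KO, 0 changed in Dnmt3a KO, and 1 rose and 0 fell in Tet2 KO against Rosa KO, where 0.814%, 0.036% and 0.987% of all tested genes rose in the same order, so 1 of 63 is near the background. The 1 gene was Asf1b, a histone chaperone, in both. It had 35.7, 25.2, 30.4 and 32.3 CPM in Asxl1 KO, against 19.4, 11.4, 7.45, 14.0 and 12.2 CPM in Rosa KO, with no overlap and a log2 fold change of 1.61 ± 0.34 (SE, edgeR adjusted p = 0.011). In Tet2 KO it had 9.47 and 13.0 CPM in run 2 and 42.2 and 42.9 CPM in run 3, so the groups overlapped in run 2 values, and the log2 fold change was 1.51 ± 0.34 (SE, edgeR adjusted p = 0.022).

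The 20 mitosis genes were above 0 in 20 of 20 cases in each knockout, with medians of 0.94 in Asxl1 KO, 0.81 in Dnmt3a KO and 1.00 in Tet2 KO, where 50.04%, 49.8% and 48.4% of all tested genes were above 0. In Tet2 KO 3 of 20 rose: Ccnb2 and Ccna2, cyclins of G2 and mitosis, by log2 fold changes of 1.43 and 1.29, and Tpx2, a spindle factor, by 1.28, where 0.987% of all tested genes rose. In Asxl1 KO and Dnmt3a KO 0 of 20 rose. Their summed CPM was 1299 and 2306 in run 2 and 3731 and 3268 in run 3 of Tet2 KO, 3715 and 3637 in run 1 and 1073 and 1781 in run 2 of Dnmt3a KO, and 2518, 3678, 1788 and 1997 in Asxl1 KO libraries 1 to 4, against 1395 to 1827 in Rosa KO. The 4 libraries that were highest in the replication genes were thus also high in the mitosis genes, and Asxl1 KO 2 was high in the mitosis sum and not in the replication sum. Asxl1 KO 1 and 4 lay above all Rosa KO libraries in both sums, by less, and Tet2 KO 2 in the mitosis sum alone. Of 22 regulators of the G1 to S step, 0 passed in any knockout against Rosa KO.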

How the data were processed

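RNA was isolated and 17 spleen CD8 T cell libraries made with a stranded total RNA kit, per the labels' protocols, although the labels' molecule field reads genomic DNA. The authors deposited raw counts per gene for each library. STAR 2.5.3a, DESeq2 1.26.0 and mm10 are named without roles, per the submitters' processing notes, and the sources used here do not name the counter, the annotation or the strand setting. TMM factors and quasi-likelihood fits came from edgeR 4.0.16 (R 4.3.3), run on all 17 libraries with group and run as terms, filterByExpr at its minimum of 10 counts, 13881 genes and Benjamini-Hochberg adjustment, tested on simulated counts. Printed CPM are TMM-scaled. Residual degrees of freedom were 11 and the common biological coefficient of variation 0.604, and no library pair agreed within sampling noise. Per-length levels used GENCODE exon lengths. Alternatives were DESeq2 1.42.0, no filter, no run term, a replicate block, fits within runs and each library left out. Members, lists and alternatives were chosen with earlier results of these data known. Values in every library were printed for called members, the highest-level member of each role class, and the 2 highest and 2 lowest fold changes per knockout.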

Additional observations from a re-analysis of the deposited data

Results flagged for a closer look

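In groups of 4 or 5 libraries, 76 of which were looked at for the named members and sums, a single library stood far from the rest in 3 cases. Chance alone gives about 1 in 20 groups, so 3 of 76 is no more than that share. Mcm3 was 138.6 CPM in Asxl1 KO 1, above the other 3 Asxl1 KO libraries. Pola1 was 61.3 CPM in Tet2 KO 1, under the other 3 Tet2 KO libraries. Gins3 was 4.44 CPM in Dnmt3a KO 3, under the other 3 Dnmt3a KO libraries.

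In 3 cases every library of a knockout pair moved in opposite directions in 2 runs, and none of these differences between runs was tested. For Dut, Asxl1 KO minus Tet2 KO was 0.27 (log2 of mean CPM) in run 2 and -0.37 in run 3. In run 2 Asxl1 KO 2 had 41.3 CPM of Dut and Tet2 KO 2 had 41.0 CPM, so the 0.27 came almost wholly from Tet2 KO 1 at 27.3 CPM. For the summed CPM of the 43 members, Asxl1 KO minus Tet2 KO was 0.14 in run 2 and -0.45 in run 3, and Asxl1 KO minus Dnmt3a KO was -0.31 in run 1 and 0.28 in run 2. In run 2 the sums of Asxl1 KO 2 and Tet2 KO 2 were also close, at 2389 and 2352 CPM. Run 2 held 1 Asxl1 KO library and so did run 1, so these rest on single libraries. Such separation was common among all tested genes. Asxl1 KO 2 was above both run 2 Tet2 KO libraries for 31.5% of them. Both run 3 Tet2 KO libraries were above both run 3 Asxl1 KO libraries for 22.3%. The share of all genes that did both was not computed.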

How the results depend on the processing

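Lists of 6 values run in the order Asxl1 KO, Dnmt3a KO and Tet2 KO against Rosa KO, then Asxl1 KO against Dnmt3a KO, Asxl1 KO against Tet2 KO and Dnmt3a KO against Tet2 KO. Shares are given because the settings test different numbers of genes. In the reported fits 1.64%, 0.216%, 1.47%, 0.353%, 0.562% and 0.0937% of tested genes were called, with 1, 1, 5, 0, 0 and 0 members. With DESeq2 the shares were 4.88%, 1.08%, 2.93%, 1.58%, 1.28% and 0.526%, with 2 members in Asxl1 KO and 8 in Tet2 KO. Without the filter on low counts, where 21195 genes were tested, they were 2.68% in Asxl1 KO (2 members), 0.59% in Dnmt3a KO, 1.78% in Tet2 KO (378 genes, against 204 with the filter), and 1.46%, 0.906% and 0.311% between the knockouts, with 8 members in Tet2 KO; that setting moved the median of all genes by up to 0.19. Without the run term the shares were 0.166%, 0.137%, 0.166%, 0.0432%, 0.195% and 0.0072%, with 0 members in each knockout against Rosa KO, medians of 0.14, 0.070, 0.40, 0.037, -0.15 and -0.13 against 0.35, 0.36, 0.60, -0.065, -0.30 and -0.25 with it, the fourth with its sign turned, and reversed signs for Clspn in Dnmt3a KO (0.089) and Pola1 in Tet2 KO (-0.055).

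Same-numbered libraries did not deviate together (correlations of -0.21 to 0.16 over 24 pairs), so the labels' numbers were not taken to pair them. With the replicate block the shares were 0.367%, 0%, 0.375%, 0.0144%, 0.267% and 0.0072% with 0 members in each group comparison, 8.03% of genes and 10 members for the run, and Gins3 in Dnmt3a KO at 0.070, a reversed sign.

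With the libraries of the compared pair alone, 0 members were called in Asxl1 KO (median 0.16) and in Dnmt3a KO (0.335% of genes), and 0.149% of genes in Asxl1 KO against Dnmt3a KO. Within run 1, 4.44% of genes and 0 members were called in Asxl1 KO (median -0.087), 0 members in Dnmt3a KO, and 9.51% of genes and 4 members in Asxl1 KO against Dnmt3a KO (median -0.35). Within run 2, 0% of genes were called in Asxl1 KO against Dnmt3a KO (median 0.28) and 0.163% in Asxl1 KO against Tet2 KO (median 0.19). Within run 3, 4.42% of genes and 2 members were called in Asxl1 KO, 2.90% and 11 members in Tet2 KO, and 1.14% in Asxl1 KO against Tet2 KO (median -0.47).

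Further settings were chosen after seeing the data. With runs 1 and 3 only, 2.67% of genes were called in Asxl1 KO (median 0.16), 0 members in Dnmt3a KO, 8 members in Tet2 KO, 2.82% of genes and 2 members in Asxl1 KO against Dnmt3a KO (median -0.26), 0.325% in Asxl1 KO against Tet2 KO (median -0.54) and 0% in Dnmt3a KO against Tet2 KO. Without both run 3 Tet2 KO libraries, the shares against Rosa KO were 0.723%, 0.0862% and 0.0531% with 0 members in each, Asxl1 KO against Dnmt3a KO had 0.113%, Asxl1 KO against Tet2 KO 0.166% (median -0.059), and Pola1 in Tet2 KO was at -0.28, a reversed sign.

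Leaving out each library in turn, the shares ranged over 0.563% to 2.61%, 0.147% to 0.49%, 0.23% to 2.53%, 0.077% to 1.65%, 0.244% to 0.637% and 0.014% to 0.153%, and the members over 0 to 2, 0 to 1, 0 to 10, 0 to 1, 0 to 3 and 0 to 0. The medians ranged over 0.16 (without Asxl1 KO 2) to 0.41 in Asxl1 KO, -0.33 to 0.029 in Asxl1 KO against Dnmt3a KO and -0.50 to -0.20 in Asxl1 KO against Tet2 KO. Clspn in Dnmt3a KO ranged over -0.54 to 0.015, Gins3 over -0.47 to 0.067 and Pola1 in Tet2 KO over -0.070 to 0.20. The causes were not tested. Values from few counts, such as Orc1 in Asxl1 KO 1, also carry counting error.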
